A study of Mus musculus with 36 samples.

Results

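The nuclear-encoded parts of the mitochondrial respiratory chain and ATP synthase were followed in 4 types of primary mouse cells after 6 h with butyrate or β-hydroxybutyrate (bOHB). Members are defined by gene symbol and not by any measured value, as the protein-coding nuclear genes whose symbols start with Nduf, Sdha, Sdhb, Sdhc, Sdhd, Uqcr, Cox4, Cox5, Cox6, Cox7, Cox8 or Atp5, together with Cyc1. This rule gave 99 of the 54347 genes in the count table. They comprise 83 subunit genes, 12 assembly factors (Ndufaf1 to Ndufaf8 and Sdhaf1 to Sdhaf4), 3 further proteins (Ndufa4l2, Cox7a2l and Atp5s) and 1 second gene model named Atp5o without reads. Of the 99 members, 95 were among the 15340 genes with a level above 1 CPM (counts scaled to the effective size of the library) in at least 6 of the 36 libraries and were tested. Cox6b2, Cox7b2, Cox8c and the second Atp5o model were not.

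The cells came from male C57Bl/6 mice, and the study's methods name the substrain C57BL/6NHsd for the hepatocytes. Adipocytes had been differentiated from the stromal vascular fraction of inguinal fat of pooled mice with a cocktail that held rosiglitazone, macrophages had been grown from bone marrow, myotubes had been fused from hindlimb myoblasts, and hepatocytes had been freshly isolated by collagenase perfusion. Each cell type received vehicle (PBS), 5 mM bOHB or 5 mM butyrate, with 3 libraries per group, and both compounds were compared with the same 3 controls. Adipocytes and macrophages were treated in DMEM with serum, myotubes in their differentiation medium and hepatocytes in Williams E medium. In comparisons across the cultures, cell type, medium and preparation therefore cannot be told apart. The sources do not state whether the 3 libraries of a group came from separate animals or cultures, so p-values measure the spread between these libraries, which may be technical. In bulk RNA, fewer cells of a type and less RNA per cell cannot be told apart.

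The respiratory chain passes electrons from NADH through complex I, or from succinate through complex II, to ubiquinone, then through complex III and cytochrome c to complex IV, which reduces oxygen. Complexes I, III and IV pump protons, and ATP synthase uses the resulting gradient to make ATP. Most subunits are encoded in the nucleus, several have tissue isoforms that are typical of heart and skeletal muscle, and dedicated assembly factors build the complexes without being part of them. Butyrate is a short-chain fatty acid known as a histone deacetylase inhibitor, and bOHB, the main circulating ketone body, is butyrate with an added hydroxyl group.

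Library totals ranged from 18366289 to 23221473 estimated counts, with a median of 22177562. Within groups, all 36 pairs of replicates differed by more than sampling noise, so none was treated as a repeated library. The cultures carried the markers of their labels, but groups also differed in the levels of these markers and of markers of other cell types, most widely in myotubes. Whether such RNA came from other cells or from the labelled cells was not tested. The summed level of 10 macrophage markers was 402, 332 and 133 CPM in control myotubes, 73.1, 48.3 and 129 CPM with bOHB, and 15.3, 96.5 and 32.2 CPM with butyrate, and all 10 fell in both comparisons. The summed level of 7 hepatocyte markers was at most 0.0440 CPM in control myotubes, 0.138, 0 and 24.3 CPM with bOHB, and 31.8, 563 and 131 CPM with butyrate, with the highest value in replicate 2. The summed level of 8 myotube markers was 24039 to 29303 CPM in control myotubes, 30134 to 32751 CPM with bOHB and 15709 to 21643 CPM with butyrate. Of these 8, 0 passed the test with bOHB and 4 fell with butyrate. With butyrate, 5 of 6 adipocyte markers fell in adipocytes (6670 to 8026 CPM, against 8614 to 9317 CPM in controls), 4 of 10 macrophage markers fell in macrophages, where all 10 had their treated libraries below the controls and the sum was 6457 to 6919 CPM against 10096 to 10181 CPM, and 8 of 8 myotube markers rose in macrophages (21.0 to 64.8 CPM, against 6.95 to 14.3 CPM in controls). In hepatocytes all 4 endothelial markers fell (19.7 to 23.3 CPM, against 64.6 to 72.0 CPM in controls), and 3 of 6 adipocyte markers rose and 1 fell (68.1 to 70.2 CPM, against 36.9 to 39.6 CPM). In adipocytes 2 of 4 endothelial markers fell (117 to 134 CPM, against 176 to 202 CPM in controls). The part of these differences in the results for the members was not tested.

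Butyrate lowered more members than it raised in all 4 cell types with TMM scaling, by small amounts, and with library totals alone this held in adipocytes and myotubes only, of the 4. In myotubes, 54 of 95 members fell and 4 rose (adjusted p below 0.05 in the edgeR quasi-likelihood test), while 66.5% of all tested genes changed in either direction, 33.1% upwards and 33.4% downwards. In adipocytes, 33 fell and 5 rose (61.0% of all genes changed, 30.7% upwards and 30.3% downwards). In macrophages, 32 fell and 21 rose (65.0%, with 31.9% upwards and 33.2% downwards), and in hepatocytes 21 fell and 14 rose (63.5%, with 31.0% upwards and 32.4% downwards). The share of members that changed was below the background in every cell type. The share that fell was 56.8% in myotubes, 34.7% in adipocytes, 33.7% in macrophages and 22.1% in hepatocytes, and by library totals alone it was 15.8%, 9.47%, 9.47% and 16.8%, below all genes in each (25.2%, 24.7%, 21.8% and 29.2%).

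The sizes were modest beside the rest of the transcriptome. The median absolute log2 fold change of the members was 0.15 in adipocytes, 0.21 in macrophages, 0.20 in myotubes and 0.15 in hepatocytes, against 0.42, 0.49, 0.45 and 0.54 over all tested genes. Among members that changed, 34 of 38 in adipocytes, 41 of 53 in macrophages, 55 of 58 in myotubes and 27 of 35 in hepatocytes moved by less than 0.5 on the log2 scale. The median log2 fold change of all members was -0.14 in adipocytes, -0.06 in macrophages, -0.19 in myotubes and -0.05 in hepatocytes. With scaling by library totals alone, the median of all genes was 0.07 in adipocytes, 0.20 in macrophages, 0.13 in myotubes and 0.01 in hepatocytes (0, 0, 0 and -0.01 with TMM). The counts of members raised and lowered became 7 and 9, 45 and 9, 10 and 15, and 21 and 16, so that macrophages, and by a small margin hepatocytes, changed sides. On that scale 35.2%, 43.6%, 40.9% and 33.8% of all genes were raised. Relative to the median of all genes under that scaling, the members' median was -0.12 in adipocytes, -0.19 in myotubes, -0.03 in macrophages and 0.01 in hepatocytes. Single members could move further than the median of all genes, as Atp5c1 did in hepatocytes, from 0.17 to 0.24. The change of sign in hepatocytes thus depends on this reference and is not read as a result about the members.

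Single libraries decided part of the myotube and adipocyte counts. Butyrate replicate 3 of the myotubes had the lowest summed subunit level and the lowest myotube marker sum (15709 CPM), and stood apart from its group, with a chi-square per gene of 45.6 and 51.5 against the other replicates, which gave 9.92 between them. Without it 26 members fell in myotubes (27.4%, against 32.7% of all genes), so the excess over all genes was lost, without control replicate 2 the count was 31 (32.6%, against 31.1%), and without butyrate replicate 2, which carried the most hepatocyte marker RNA, it was 60. In a fit of the 9 myotube libraries by themselves, 31 fell (32.6%, against 29.7%). In adipocytes, 15 members fell when control replicate 1 was left out (15.8%, against 28.1% of all genes) and 20 when butyrate replicate 1 was left out (21.1%, against 28.5%), so the share went from above that of all genes to below it. In macrophages 19 fell without butyrate replicate 2 (20.0%, against 30.0%).

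**Figure D1:**
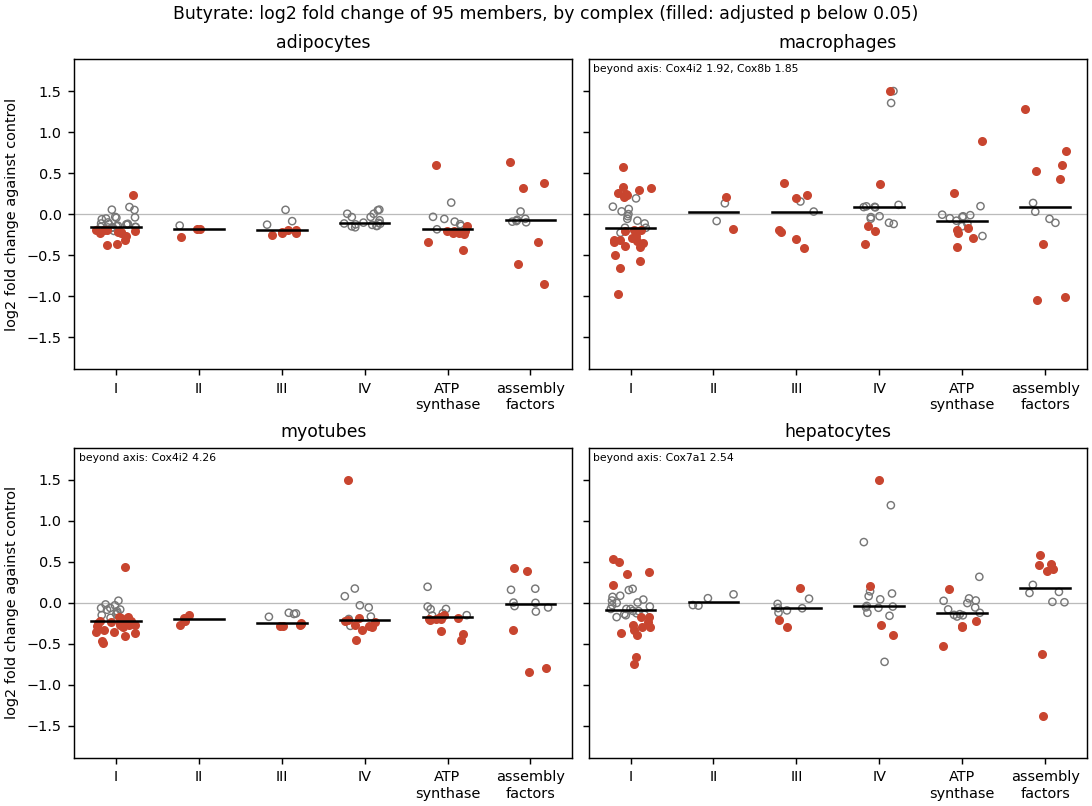
Log2 fold change of the 95 tested members with butyrate against control, 1 panel per cell type and 1 column per complex, with Ndufa4l2 and Cox7a2l drawn with complex IV and Atp5s with ATP synthase; filled points have an adjusted p below 0.05, black bars are medians of the points drawn, and values beyond the axis are written in the panel. Most subunits lie within 0.5 of 0, and the assembly factors spread more widely, from Ndufaf1 at -1.38 in hepatocytes to Ndufaf7 at 1.28 in macrophages (TMM scaling; by library totals alone more members rose than fell in macrophages and hepatocytes).

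The member that fell most in hepatocytes was Ndufaf1 (chr2:119655446-119662827, minus strand, GRCm38.p6), an assembly factor that joins the membrane intermediates of complex I. Its level in hepatocytes was 24.6, 20.3 and 22.3 CPM in controls and 8.37, 9.12 and 8.30 CPM with butyrate. In macrophages it was 9.75, 9.22 and 10.0 CPM in controls and 5.09, 4.29 and 5.07 CPM with butyrate. The treated libraries lay below all controls in both cell types, and also in adipocytes (20.4 to 23.6 CPM in controls, 13.6 to 14.8 CPM with butyrate) and myotubes (21.7 to 24.8 and 12.0 to 14.3 CPM). The log2 fold change of Ndufaf1 was -0.61 in adipocytes, -1.01 in macrophages, -0.80 in myotubes and -1.38 in hepatocytes (SE 0.08, 0.09, 0.08 and 0.08), with edgeR adjusted p = 4.3e-08, 5.37e-11, 1.67e-10 and 5.22e-15. In hepatocytes this left 0.385 of the control level.

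Butyrate lowered 10 members in all 4 cell types (12.7% of all tested genes did so) and raised 3 (12.5% of all genes). The lowered members were the assembly factors Ndufaf1 and Ndufaf8, the core complex I subunits Ndufs3, Ndufs7 and Ndufs8 of the ubiquinone-reducing Q module, the accessory complex I subunits Ndufa10, Ndufb7 and Ndufb8, the complex III core protein Uqcrc1 and the ATP synthase c-ring gene Atp5g3. The raised members were Ndufaf7, a protein methyltransferase needed for the assembly of complex I, Ndufaf2, a late assembly factor of complex I, and Ndufv3, an accessory subunit of its NADH-oxidising N module. Of these 13, the 3 raised members and Ndufaf1 and Ndufs3 kept their call in all 4 cell types in 9 other ways of fitting the data and with any library left out. At an unadjusted p below 0.001 Ndufv3 missed the threshold in adipocytes and the other 4 of these passed in all 4 cell types. The remaining 8 did not keep all 4 calls under scaling by library totals alone. Atp5g3 kept them in 5 of the 9 ways and in 19 of 24 fits without 1 library, Ndufa10 in 7 and 20, and Ndufaf8, Ndufs7, Ndufb8 and Uqcrc1 in 21, 21, 21 and 22 of those 24 fits. Another 13 members changed in no cell type.

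Ndufs3 (chr2:90894634-90904827, minus strand), a core subunit beside the iron-sulfur chain, was measured at 134, 124 and 126 CPM in control adipocytes and 94.8, 106 and 95.7 CPM with butyrate. In hepatocytes it went from 83.5, 77.5 and 83.1 CPM to 49.6, 52.7 and 52.5 CPM. No treated library overlapped a control in any cell type, and the log2 fold change of Ndufs3 was -0.37, -0.57, -0.49 and -0.66 in adipocytes, macrophages, myotubes and hepatocytes (SE 0.07, 0.08, 0.07 and 0.08). Ndufs8 (chr19:3908863-3912774, minus strand), which carries iron-sulfur clusters next to the ubiquinone site, fell most in macrophages. There it was measured at 26.8, 26.2 and 27.0 CPM in controls and 13.9, 13.1 and 13.9 CPM with butyrate, a log2 fold change of -0.97 (SE 0.07, edgeR adjusted p = 1.1e-12), beside -0.22 in adipocytes, -0.47 in myotubes and -0.74 in hepatocytes.

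Ndufaf7 (chr17:78937136-78948052, plus strand) rose most in macrophages. Its level there was 11.7, 11.3 and 10.5 CPM in controls and 27.4, 23.9 and 29.9 CPM with butyrate, a fold change of 2.42 (log2 1.28, SE 0.07, edgeR adjusted p = 8.28e-16). In myotubes it was 21.0, 21.1 and 21.4 CPM in controls and 29.9, 28.0 and 26.8 CPM with butyrate. The log2 fold change was 0.32 in adipocytes, 0.42 in myotubes and 0.39 in hepatocytes, and the groups did not overlap in any of the 4 cell types. Ndufv3 (chr17:31520115-31531331, plus strand) went from 65.2, 72.2 and 57.7 CPM to 88.1, 92.6 and 94.1 CPM in hepatocytes (log2 0.49, SE 0.08, edgeR adjusted p = 2.68e-06), and its log2 fold change was 0.24, 0.57 and 0.43 in adipocytes, macrophages and myotubes. Ndufaf2 rose by 0.38, 0.53, 0.38 and 0.47 in adipocytes, macrophages, myotubes and hepatocytes.

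**Figure D2:**
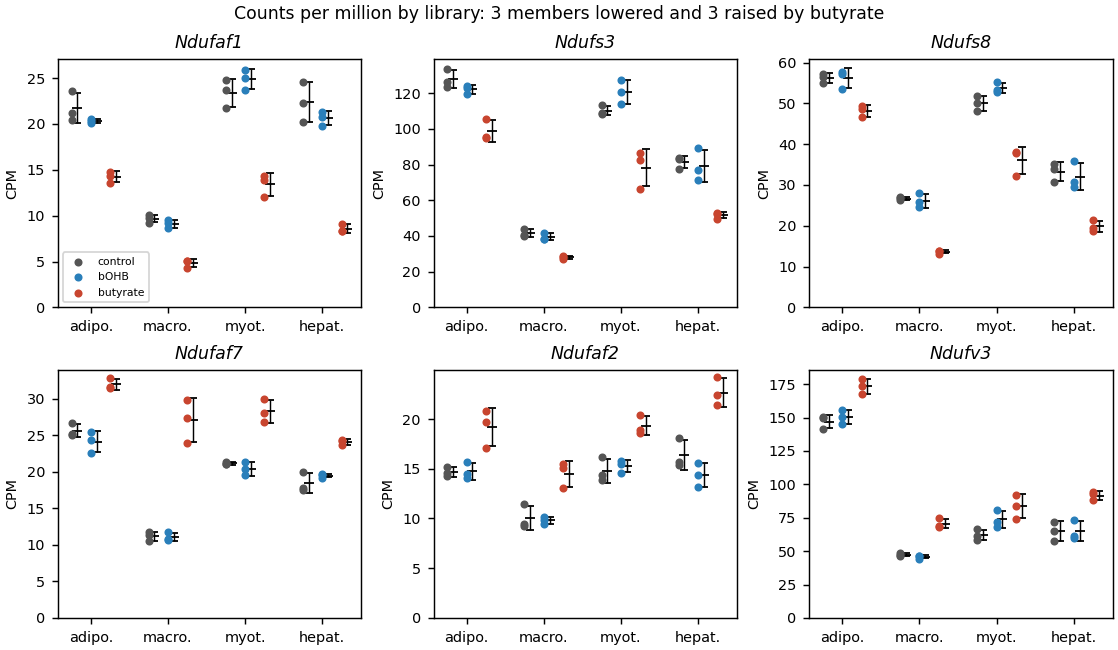
CPM of 6 members in each library, with control, bOHB and butyrate side by side in each cell type (points are libraries, bars are mean and SD of 3). Ndufaf1, Ndufs3 and Ndufs8 were lower and Ndufaf7, Ndufaf2 and Ndufv3 higher with butyrate than in the controls of all 4 cell types, and in myotubes every bOHB library of Ndufv3 also lay above the controls; the fall of Ndufs8 was not called in all 4 under library totals alone.

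Promoter windows are shown for 5 members that fell or rose in all 4 cell types, of which the 4 that fell were picked to show a match to each of 4 motifs. The windows are those of RefSeq (GRCm38.p6), from 250 bases before to 50 after the start, and 80 of the 99 members had at least 1, giving 85 windows. Each was searched on both strands for the exact letters of the GABPA motif CCGGAAGT, the ERR motif TCAAGGTCA and the longer NRF1 and YY1 motifs, 4 factors known to act on genes of oxidative phosphorylation. NRF1 letters stood in 7 member windows (8.24%, against 0.971% of all 32851 windows), GABPA in 5 (5.88% against 3.89%), ERR in 2 (2.35% against 0.423%) and YY1 in 5 (5.88% against 0.633%), and 19 member windows held at least 1, none of them more than 1 of the 4. Of the 10 members lowered in all 4 cell types, 5 had a match and the other 5, Ndufaf1 and Ndufs8 among them, had none, and of the 3 raised, 0. The capitals below mark the match, GABPA in Ndufs3 (chr2:90904672-90904971, minus), YY1 in Ndufs7 (chr10:80249199-80249498, plus), NRF1 in Uqcrc1 (chr9:108936398-108936697, plus) and ERR in Atp5g3 (chr2:73911277-73911576, minus), with the ERR and GABPA letters on the opposite strand. The Ndufaf7 window (chr17:78936885-78937184, plus) held none of the 4.
Ndufs3: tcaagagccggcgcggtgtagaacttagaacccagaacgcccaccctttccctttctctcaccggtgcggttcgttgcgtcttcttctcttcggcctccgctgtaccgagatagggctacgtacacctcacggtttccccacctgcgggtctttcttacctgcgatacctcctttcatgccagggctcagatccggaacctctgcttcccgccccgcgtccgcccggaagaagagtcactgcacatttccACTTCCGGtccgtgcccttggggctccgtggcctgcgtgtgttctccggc
Ndufs7: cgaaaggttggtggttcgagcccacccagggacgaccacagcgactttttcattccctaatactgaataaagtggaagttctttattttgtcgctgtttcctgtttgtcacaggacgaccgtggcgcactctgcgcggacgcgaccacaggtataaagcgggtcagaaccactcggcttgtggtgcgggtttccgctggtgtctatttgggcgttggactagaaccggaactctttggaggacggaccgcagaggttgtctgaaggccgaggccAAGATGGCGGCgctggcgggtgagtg
Uqcrc1: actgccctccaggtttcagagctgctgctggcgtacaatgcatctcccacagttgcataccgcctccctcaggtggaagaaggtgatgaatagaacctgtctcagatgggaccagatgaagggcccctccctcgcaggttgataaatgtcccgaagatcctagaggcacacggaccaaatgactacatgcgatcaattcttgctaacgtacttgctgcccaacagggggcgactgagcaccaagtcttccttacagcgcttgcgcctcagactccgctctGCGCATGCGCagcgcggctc
Atp5g3: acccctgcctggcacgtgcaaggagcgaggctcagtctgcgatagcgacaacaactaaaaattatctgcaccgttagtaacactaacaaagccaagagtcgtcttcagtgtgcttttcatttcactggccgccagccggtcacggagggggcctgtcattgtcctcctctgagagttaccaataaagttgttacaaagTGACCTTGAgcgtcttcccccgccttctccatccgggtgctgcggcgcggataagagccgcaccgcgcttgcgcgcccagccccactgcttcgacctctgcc
Ndufaf7: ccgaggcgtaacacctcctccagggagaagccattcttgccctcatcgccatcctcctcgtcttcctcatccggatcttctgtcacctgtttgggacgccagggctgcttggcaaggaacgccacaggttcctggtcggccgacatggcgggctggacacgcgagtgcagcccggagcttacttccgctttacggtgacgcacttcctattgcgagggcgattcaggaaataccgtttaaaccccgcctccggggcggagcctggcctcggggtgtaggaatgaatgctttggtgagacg

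Among the 36 tested complex I subunits, 12 fell and 1 rose in adipocytes, 16 fell and 8 rose in macrophages, 23 fell and 1 rose in myotubes, and 11 fell and 5 rose in hepatocytes, with medians of -0.16, -0.17, -0.22 and -0.09. By library totals alone these medians were -0.07, 0.06, -0.08 and -0.02, with 4, 6, 8 and 9 subunits lowered and 2, 14, 2 and 7 raised, so the direction turned in macrophages. Of the core subunits, Ndufs7, which carries the last iron-sulfur cluster before ubiquinone, fell in all 4 cell types like Ndufs3 and Ndufs8, with log2 fold changes of -0.23, -0.32, -0.37 and -0.39 in adipocytes, macrophages, myotubes and hepatocytes, though not all 4 calls held by library totals. The 3 core subunits of the N module gave mixed values, since Ndufv1 did not pass the test in any cell type (-0.13, 0.03, -0.14 and 0.07), Ndufs1 fell in adipocytes (-0.31), macrophages (-0.19, but 0.03 by library totals) and myotubes (-0.28), and Ndufv2 fell in adipocytes (-0.23) and rose in macrophages (0.33). Ndufb10, an accessory subunit of the membrane arm, rose in hepatocytes from 47.1, 42.7 and 45.4 CPM to 67.2, 61.9 and 66.0 CPM (log2 0.53, SE 0.08, edgeR adjusted p = 1.28e-06), without overlap.

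Complex II, the succinate dehydrogenase, has 4 nuclear genes and no mitochondrial one. All 4 fell in myotubes (log2 -0.15 for Sdha, -0.18 for Sdhb, -0.27 for Sdhc and -0.22 for Sdhd), and 3 of 4 in adipocytes, but by library totals alone 0 and 1 passed. In myotubes the treated libraries of Sdha, Sdhb and Sdhd overlapped the controls. In macrophages the iron-sulfur subunit Sdhb fell (-0.19, SE 0.08, but 0.04 by library totals), while the membrane anchor Sdhd rose from 63.5, 63.9 and 65.0 CPM to 71.9, 71.9 and 78.2 CPM (0.21, SE 0.08, edgeR adjusted p = 0.0291). In adipocytes Sdhd fell from 163, 138 and 142 CPM to 121, 129 and 116 CPM (-0.27, SE 0.08), so the same gene moved in opposite directions in adipocytes and macrophages. No complex II subunit passed the test in hepatocytes, whereas by library totals 1 rose there and 3 rose and none fell in macrophages.

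In complex III, 6 of 9 subunits fell in adipocytes, 5 in myotubes, 4 in macrophages and 2 in hepatocytes, while 3 rose in macrophages and 1 in hepatocytes. By library totals alone none passed in adipocytes or myotubes (medians -0.10 and -0.11), in macrophages 5 rose and 1 fell, and in hepatocytes 1 rose and 1 fell. Uqcrfs1, the Rieske iron-sulfur protein, was measured at 202, 189.5 and 180.1 CPM in control adipocytes and 156, 163 and 168 CPM with butyrate (log2 -0.23, SE 0.08), and at 52.0, 54.0 and 51.9 CPM in control macrophages and 58.3, 56.2 and 66.4 CPM with butyrate (0.20, SE 0.08). The groups did not overlap in either. Cyc1, the cytochrome c1 subunit that hands electrons to cytochrome c, was at -0.19 in adipocytes and 0.24 in macrophages, both past the threshold. Uqcrh, the hinge protein beside it, rose in macrophages by 0.38 (SE 0.08), and Uqcrb fell in adipocytes (-0.25), macrophages (-0.41) and myotubes (-0.26).

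For complex IV, none of the 15 tested subunits passed the test in adipocytes (medians by complex there were -0.11 for complex IV and between -0.16 and -0.19 for complexes I, II, III and ATP synthase), 9 fell and 1 rose in myotubes, 3 fell and 2 rose in macrophages, and 2 fell and 1 rose in hepatocytes. By library totals alone, 4 fell and 2 rose in myotubes and 7 rose and none fell in macrophages, where the median was 0.08 with TMM and 0.30 by totals. In hepatocytes 2 fell and 3 rose on that scale. In the edgeR test in adipocytes, the lowest adjusted p-values belonged to subunits such as Cox5b (-0.15, adjusted p = 0.0596) and Cox5a (-0.14, adjusted p = 0.0691), close to the threshold. Cox5a (chr9:57521274-57532426, plus strand), a nuclear subunit on the matrix side, was measured at 89.6, 91.2 and 93.6 CPM in control macrophages and 111, 113 and 129 CPM with butyrate. It rose there by 0.36 (SE 0.07, edgeR adjusted p = 3.31e-05) without overlap, whereas its log2 fold change was -0.06 in myotubes (95% interval -0.20 to 0.08) and 0.11 in hepatocytes (-0.03 to 0.25). Its partner in name, Cox5b, fell in macrophages (-0.37), myotubes (-0.28) and hepatocytes (-0.39), in hepatocytes from 146, 133 and 133 CPM to 104, 108 and 102 CPM.

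Several tissue isoforms of complex IV changed, most of them at low levels. Cox6a2, the isoform of heart and skeletal muscle, fell in myotubes from 192, 221 and 242 CPM to 172, 168 and 138 CPM (log2 -0.46, SE 0.09, edgeR adjusted p = 7.58e-05), and its share of the Cox6a pair, per kb of transcript, went from 76.9% ± 2.23 to 68.3% ± 6.33 (SD, n = 3). The sum of myotube markers was lower in the same libraries. Cox4i2, the isoform known from lung and hypoxia, rose in myotubes from 0, 0 and 1 count per library to 10, 8 and 10 counts. By library totals this is a ratio of 28.9 with a 95% counting interval of 4.77 to 1180 (log2 4.26 with TMM). In macrophages Cox4i2 rose from 2, 2 and 3 to 15, 10 and 5 counts (ratio by library totals 4.61, interval 1.98 to 12.4, log2 1.92 with TMM). Cox7a1, the muscle isoform, rose in hepatocytes from 4, 3 and 4 to 31, 27 and 16 counts (ratio by library totals 6.22, interval 3.28 to 13.0, log2 2.54 with TMM). In the same libraries the sum of 8 myotube markers went from 28.2 to 29.2 CPM up to 43.7 to 48.7 CPM, where Acta1 rose, Des fell and the other 6 did not pass the test. The adipocyte markers went up as given above, with Adipoq and Plin1 below 0.05 CPM on average, and the part of either in the change of Cox7a1 was not tested. Even after butyrate, Cox4i2 stood at 0.169% ± 0.0345 of the Cox4i pair in myotubes and Cox7a1 at 3.22% ± 0.787 of the Cox7a pair in hepatocytes. Cox6b2, the testis isoform that was below the filter and not tested, gave 3, 3 and 1 counts in control macrophages and 20, 14 and 17 counts with butyrate (ratio by library totals 7.83, interval 3.54 to 20.5). These ratios are by library totals, without the TMM factors, and their intervals cover counting error only.

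**Figure D3:**
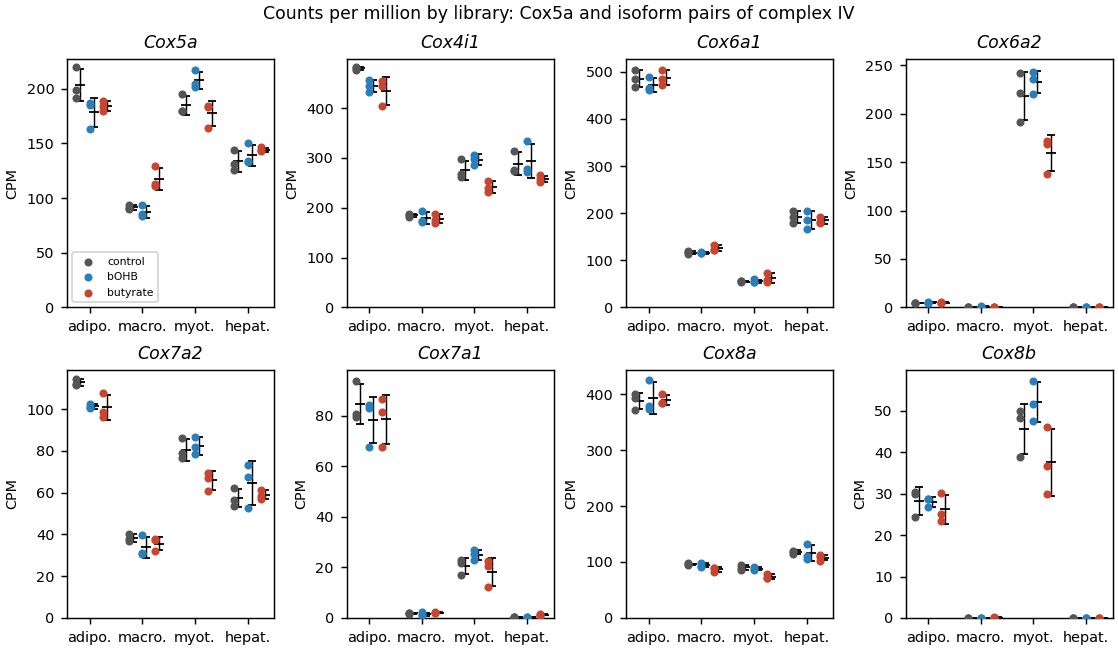
CPM of Cox5a and of the isoform pairs Cox4i1, Cox6a1 with Cox6a2, Cox7a2 with Cox7a1 and Cox8a with Cox8b in each library, by cell type and treatment (points are libraries, bars are mean and SD of 3, axes start at 0). Cox5a was raised by butyrate in macrophages (0.36, against 0.11 in hepatocytes, which did not pass), and Cox6a2 was read mainly in myotubes, where the butyrate libraries lay below all controls.

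Of 16 ATP synthase subunits, 9 fell and 0 rose in adipocytes, 10 fell and 0 rose in myotubes, 5 fell and 1 rose in macrophages, and 4 fell and 1 rose in hepatocytes. By library totals alone, 2 fell in adipocytes, 1 in myotubes and 2 in hepatocytes, and in macrophages 7 rose and none fell. The proton-carrying c-ring has 3 genes for the same mature protein, and Atp5g3 fell in all 4 cell types, with the limits given above, from 216, 205 and 194 CPM to 152, 169 and 167 CPM in adipocytes (log2 -0.34, SE 0.08, edgeR adjusted p = 0.000479). Atp5g2 fell in myotubes (-0.45, SE 0.19) and hepatocytes (-0.53, SE 0.22). In the F1 head, the catalytic Atp5b fell in myotubes (-0.20, SE 0.07) and was at -0.12, -0.01 and -0.15 elsewhere, without passing the test. Atp5d, the delta subunit of the stalk, rose in macrophages (0.26, SE 0.07) and fell in hepatocytes (-0.30, SE 0.07), from 259, 244 and 226 CPM to 201, 192 and 199.8 CPM. Atp5k, the e subunit of the membrane part, fell in adipocytes (-0.43), macrophages (-0.40) and myotubes (-0.35). Atp5s, known as coupling factor B and not a subunit, went against this direction, from 4.11, 3.48 and 3.16 CPM to 8.00, 6.16 and 5.88 CPM in macrophages (0.89, SE 0.15, edgeR adjusted p = 5.32e-06), and from 5.07, 5.73 and 5.02 CPM to 7.15, 9.32 and 7.49 CPM in adipocytes (0.60, SE 0.14).

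Among the 12 assembly factors, 5 rose and 2 fell in hepatocytes (median 0.17), in macrophages 5 rose and 3 fell, in adipocytes 3 and 3, and in myotubes 2 rose and 3 fell. By library totals alone the rises and falls were 6 and 2, 7 and 2, 3 and 2, and 4 and 2 in that order. Among the factors of complex II, Sdhaf3, which helps insert iron-sulfur clusters into Sdhb, rose in adipocytes from 6.41, 6.08 and 5.70 CPM to 9.02, 9.56 and 9.56 CPM (log2 0.63, SE 0.12, edgeR adjusted p = 5.85e-05), in macrophages (0.43) and in hepatocytes (0.41). Sdhaf1, with a related role and singled out after its values were seen, rose in macrophages and did not pass the test in the other 3 cell types. Its macrophage levels went from 5.72, 5.24 and 5.19 CPM to 8.95, 9.08 and 9.51 CPM (0.77, SE 0.12). Among the factors of complex I, Ndufaf4 fell in adipocytes from 33.0, 32.3 and 30.7 CPM to 19.4, 19.3 and 14.4 CPM (-0.86, SE 0.10, edgeR adjusted p = 1.52e-08) and in macrophages (-0.37), and was at -0.06 in myotubes and 0.01 in hepatocytes. Ndufaf3, which works with Ndufaf4 in building the Q module, rose in hepatocytes from 5.96, 6.27 and 6.27 CPM to 8.74, 9.91 and 9.13 CPM (0.59, SE 0.13) and fell in myotubes (-0.33, SE 0.11). Ndufaf8, the partner of Ndufaf5, fell most in macrophages (-1.05, SE 0.16).

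Between cell types, 9 members rose in 1 and fell in another, as 19.3% of all tested genes did. For each the difference between the effects passed the test, which the choice by opposite calls nearly ensures, so it adds no support. The 9 were Atp5c1, Atp5d, Cyc1, Ndufa12, Ndufab1, Ndufaf3, Ndufv2, Sdhd and Uqcrfs1, and in 7 of them macrophages were a cell type with the rise. Under library totals alone, Atp5d and Sdhd were the only members of the 9 that still passed in both directions. The widest contrast was that of Ndufaf3, whose effect in myotubes minus that in hepatocytes was -0.92 on the log2 scale (SE 0.17, edgeR adjusted p = 4.28e-05). The effect of butyrate differed between macrophages and myotubes for 24 members, 23 of them with the higher value in macrophages (43.5% of all genes differed, 22.0% with the higher value in macrophages). It differed between adipocytes and macrophages for 25 (36.6% of all genes), between adipocytes and hepatocytes for 21 (41.4%), between macrophages and hepatocytes for 18 (44.4%), 10 of them with the higher value in macrophages (22.4%), between myotubes and hepatocytes for 18 (48.4%) and between adipocytes and myotubes for 9 (36.8%). The last count was 4 without butyrate replicate 2 of the adipocytes and 5 without control replicate 2 of either cell type, and the count for myotubes and hepatocytes was 11 without control replicate 2 of the myotubes.

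Summed over the 83 subunit genes, the level fell with butyrate from 15335 ± 602 to 13887 ± 376 CPM in adipocytes, from 12386 ± 623 to 10817 ± 1052 CPM in myotubes and from 9067 ± 290 to 8518 ± 171 CPM in hepatocytes, and was 5348 ± 60.0 and 5166 ± 226 CPM in macrophages (SD, n = 3). On this scale the libraries did not overlap in adipocytes, myotubes or hepatocytes and overlapped in macrophages. As a share of all counts, without the TMM factors, the same genes took 1.55% ± 0.0467 of control and 1.50% ± 0.0384 of butyrate-treated adipocytes, 1.27% ± 0.0453 and 1.21% ± 0.0995 in myotubes, 0.778% ± 0.0258 and 0.767% ± 0.0135 in hepatocytes and 0.545% ± 0.00546 and 0.615% ± 0.0287 in macrophages, so that macrophages turned upwards on this scale. The shares of treated and control libraries overlapped in adipocytes, myotubes and hepatocytes and did not overlap in macrophages.

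**Figure D4:**
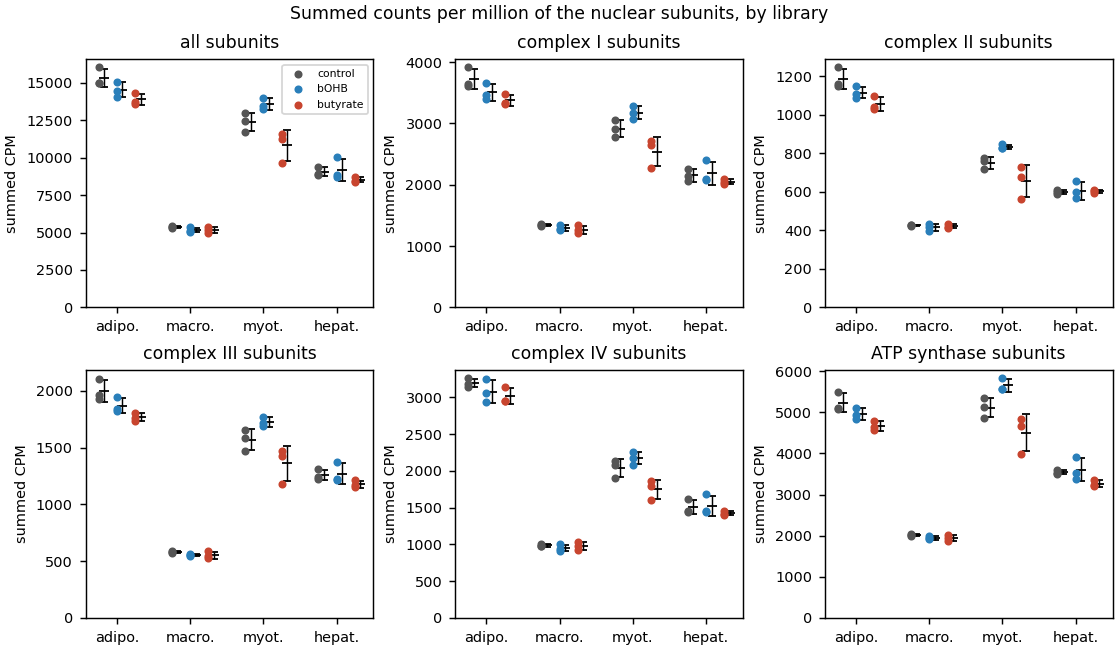
Summed CPM of the subunit genes, in total and by complex, in each library of the 4 cell types (points are libraries, bars are mean and SD of 3, axes start at 0). Adipocytes were highest in total, at 15335 CPM in controls, and macrophages lowest, at 5348 CPM; in myotubes the total over all complexes was above the controls in every bOHB library and below them in every butyrate library, which did not hold for each complex or as a share of all counts, and as a share of all counts the macrophage sum was higher with butyrate.

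With bOHB, no member passed the test in any cell type, apart from Ndufv3 in myotubes when the replicate number was added as a block (edgeR adjusted p = 0.0303). In adipocytes, 0.00652% of all tested genes did, in macrophages 0%, in myotubes 2.91% (0.346% upwards and 2.56% downwards) and in hepatocytes 0.00652%. At an unadjusted p below 0.05, edgeR gave 9 members in adipocytes, 1 in macrophages, 23 in myotubes and 3 in hepatocytes (7.15%, 2.33%, 13.7% and 5.51% of all genes), limma-voom gave 10, 2, 24 and 1 (8.06%, 2.77%, 14.6% and 5.89%), and DESeq2 gave 9, 2, 16 and 2 (6.52%, 2.18%, 12.4% and 5.33%), and neither limma-voom nor DESeq2 called a member after adjustment. The 95% intervals lay within 0.5 of 0 on the log2 scale for 88 of 95 members in adipocytes, 87 in macrophages, 92 in myotubes and 88 in hepatocytes, with a median distance from the estimate to the bound of 0.15, 0.16, 0.15 and 0.16. These distances are close to the median absolute change with butyrate.

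In myotubes the members leaned upwards with bOHB. The log2 fold change was positive for 85 of 95, with a median of 0.12 against 0.02 over all genes, and 33 members had all 3 bOHB libraries above all controls (14.5% of all genes) and 0 had them below (8.36%). The 23 members with an unadjusted p below 0.05 were all positive. With scaling by RLE 12 members had such a p (12.3% of all genes), and with library totals alone 5 (12.7% of all genes), where 74 members were positive with a median of 0.06 (-0.03 over all genes). By complex, the median was 0.12 for complex I, 0.15 for complex II, 0.13 for complex III, 0.09 for complex IV and 0.14 for ATP synthase, with 32 of 36, 4 of 4, 9 of 9, 14 of 15 and 14 of 16 subunits positive.

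The smallest adjusted p belonged to Ndufv3, at 58.2, 66.3 and 61.7 CPM in control myotubes and 71.9, 81.0 and 68.4 CPM with bOHB (log2 0.25, SE 0.08, edgeR adjusted p = 0.0910). Cyc1 was measured at 166, 177 and 172 CPM in controls and 197, 206 and 202 CPM with bOHB (0.23, SE 0.08, edgeR adjusted p = 0.148). Cox5a was at 179, 195 and 180.0 CPM and 205, 217 and 202 CPM (0.17, SE 0.07, edgeR adjusted p = 0.231). For each of the 3 the bOHB libraries lay above all controls. In these libraries the macrophage markers were lower and the sum of the myotube markers higher than in controls, as given above. No single myotube marker passed the test, and the part of either list was not tested. The difference between the bOHB effect in myotubes and the mean effect in the other cell types passed the test for 0 members (1.06% of all genes).

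In adipocytes the members leaned downwards with bOHB, with 12 of 95 positive and a median of -0.09, and 27 had all bOHB libraries below all controls (6.51% of all genes) and 0 above (6.18%). Cox5a had the smallest adjusted p, at 220.3, 192 and 199 CPM in controls and 185, 187 and 163 CPM with bOHB (log2 -0.19, SE 0.07, edgeR adjusted p = 0.592). By library totals alone 33 members had an unadjusted p below 0.05 in adipocytes (8.81% of all genes). The medians were -0.06 in macrophages, with 16 positive, and 0.02 in hepatocytes, with 59 positive.

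**Figure D5:**
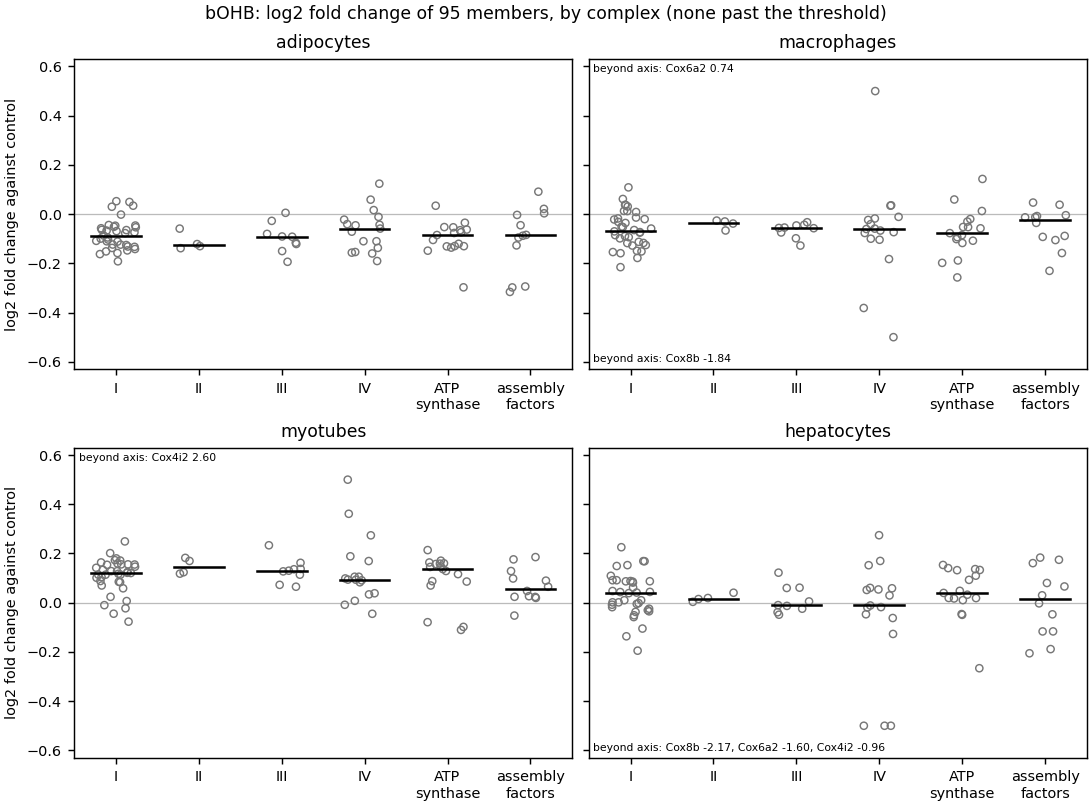
Log2 fold change of the 95 tested members with bOHB against control, laid out as for butyrate but on a narrower axis; open points are members, none of which passed the threshold, black bars are medians of the points drawn, and values beyond the axis are written in the panel. The points lie mostly below 0 in adipocytes (12 of 95 positive) and mostly above 0 in myotubes (85 of 95 positive).

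Butyrate and bOHB, which differ by the hydroxyl group, were given at the same dose and for the same time, so their libraries were also compared directly over all 15340 genes. In myotubes 74 members were lower and 4 higher with butyrate than with bOHB (66.0% of all genes differed, 32.9% lower and 33.1% higher), with a median difference of -0.31. These were 32 lower and 1 higher of 36 complex I subunits, 4 lower of 4 in complex II, 9 of 9 in complex III, 12 lower and 1 higher of 15 in complex IV, and 14 of 16 in ATP synthase. Sdha, the flavoprotein of complex II, was measured at 394, 395 and 397 CPM with bOHB and 329.8, 348 and 269 CPM with butyrate (difference -0.32, SE 0.07, edgeR adjusted p = 7.4e-05). The butyrate libraries lay below all bOHB libraries. Under library totals alone, 29 members were lower and 8 higher in myotubes (21.8% and 44.4% of all genes).

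In hepatocytes 31 members were lower and 14 higher with butyrate than with bOHB (63.5% of all genes differed, 33.0% lower and 30.5% higher), in macrophages 20 were lower and 23 higher (64.7%, with 32.8% lower and 31.8% higher), and in adipocytes 11 were lower and 6 higher (59.5%, with 29.5% lower and 30.0% higher). On library totals there were 17 lower and 19 higher in hepatocytes (29.0% and 34.1% of all genes), 3 lower and 14 higher in adipocytes (22.8% and 36.7%), and 5 lower and 50 higher in macrophages (21.5% and 43.7%), and all genes leaned upwards on that scale too. The difference of Ndufaf1 was -0.51, -0.92, -0.89 and -1.26 in adipocytes, macrophages, myotubes and hepatocytes, and that of Ndufaf7 was 0.41, 1.29, 0.47 and 0.31, all past the threshold. For Cox5a the difference was 0.43 (SE 0.07) in macrophages and -0.23 (SE 0.07) in myotubes. It did not pass in adipocytes, where it was 0.05 (95% interval -0.09 to 0.19), or in hepatocytes, where it had the same value and interval. Of the members without a call, 74 of 78 in adipocytes, 47 of 52 in macrophages, 14 of 17 in myotubes and 45 of 50 in hepatocytes had a 95% interval of the difference within 0.5 of 0.

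In control cells, 85 of 95 members were higher in adipocytes than in the mean of the other 3 cell types (37.2% of all genes were higher), with a median of 0.83 on the log2 scale, and 75 in myotubes (42.0%, median 0.45). In macrophages 89 were lower (39.5% of all genes were lower, median -1.04), and in hepatocytes 44 were lower and 17 higher (43.0% and 41.1%, median -0.09). Cox5a followed this order, with 204 ± 14.8 CPM in adipocytes, 185 ± 8.72 in myotubes, 134 ± 9.56 in hepatocytes and 91.5 ± 2.04 in macrophages (SD, n = 3), and the libraries of adipocytes and myotubes overlapped while the other neighbours did not. Cell type, medium and preparation cannot be told apart in these levels.

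The isoforms present differed between the cell types. Per kb of annotated transcript, Cox6a2 took 76.9% ± 2.23 of the Cox6a pair in control myotubes and 0.819% ± 0.0293 in adipocytes. Cox8b took 43.5% ± 2.41 of the Cox8 genes in myotubes and 10.0% ± 1.19 in adipocytes, and was at or near 0 in macrophages and hepatocytes. Cox7a1 took 52.9% ± 2.36 of the Cox7a pair in adipocytes, more than the 27.7% ± 2.25 in myotubes, beside 6.86% ± 0.444 in macrophages and 0.583% ± 0.0875 in hepatocytes. The levels of Ndufa4l2, a hypoxia-inducible paralog of Ndufa4, were 213, 154 and 143 CPM in control adipocytes, 24.8, 29.5 and 6.45 CPM in hepatocytes and 3.26 to 3.65 CPM in myotubes. Atp5g3 gave most of the c-ring RNA in all 4 cell types, from 76.2% ± 2.41 in macrophages to 86.1% ± 0.594 in adipocytes. The testis isoform Cox8c was listed at 0 in every library.

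Other genes of the pathway, from lists made by function, moved in both directions with butyrate, beside 30.3% to 33.4% of all tested genes lowered and 30.7% to 33.1% raised in the 4 cell types. Of 14 tested genes for the electron carriers ubiquinone and cytochrome c, 8 fell and 2 rose in adipocytes, 2 fell and 7 rose in macrophages, 9 fell and 0 rose in myotubes, and 5 fell and 2 rose in hepatocytes. Scaled by library totals, an alternative added after the values were seen, these counts were 5 and 2, 2 and 10, 8 and 0, and 5 and 3. Coq7, a hydroxylase of ubiquinone synthesis, fell in adipocytes, macrophages, myotubes and hepatocytes (log2 -0.57, -1.57, -0.61 and -1.13), and Coq8a, an atypical kinase of the same pathway, rose in adipocytes (1.01) and macrophages (1.29) and fell in myotubes (-0.60). Of 37 further assembly factors, 13 fell and 6 rose in adipocytes, 15 and 12 in macrophages, 19 and 3 in myotubes, and 16 and 12 in hepatocytes, and by library totals 9 and 9, 8 and 17, 13 and 9, and 14 and 15, which turned macrophages and hepatocytes. Sco2, a copper chaperone of complex IV, fell most, with mean levels of 8.03, 6.98, 6.60 and 22.2 CPM in the controls and 1.70, 1.85, 2.04 and 5.76 CPM with butyrate (log2 -2.23, -1.92, -1.70 and -1.95, SE 0.22, 0.22, 0.22 and 0.18), and Cmc2, another complex IV biogenesis factor, rose by 0.57, 0.75, 1.01 and 1.71.

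Of the 13 mitochondrially encoded subunits, 5 fell in adipocytes, 1 in myotubes and 2 in hepatocytes, 2 rose in hepatocytes, and none passed the test in macrophages. Scaled by library totals, 5 fell in adipocytes, 2 rose in macrophages, none passed in myotubes and 2 rose in hepatocytes. Of 13 regulators of mitochondrial gene expression, 6 fell and 2 rose in adipocytes, 5 and 3 in macrophages, 7 and 4 in myotubes, and 5 and 7 in hepatocytes, and by library totals 5 and 3, 4 and 6, 6 and 5, and 5 and 7. Pprc1, a coactivator of the PGC-1 family, fell in adipocytes, macrophages, myotubes and hepatocytes (log2 -1.51, -1.56, -1.34 and -1.84). Ppargc1a of the same family went the other way. Its mean levels in that order were 10.3, 0.325, 21.6 and 4.62 CPM in controls and 17.1, 2.53, 60.9 and 34.8 CPM with butyrate. Mean levels of Ppargc1b were lower in adipocytes and myotubes and higher in macrophages and hepatocytes. Esrrg, a nuclear receptor of the ERR family, rose in all 4, from a mean of 5.81 to 20.2 CPM in myotubes (log2 1.80) and from 0.313 to 1.46 CPM in adipocytes (2.20). Its mean control level was only 0.0168 CPM in macrophages and 0.0619 CPM in hepatocytes, against 0.148 and 1.45 CPM with butyrate. With bOHB, Nubpl, an iron-sulfur carrier for complex I, was the only gene of the 4 lists that passed the test, at -0.52 in myotubes (SE 0.14, edgeR adjusted p = 0.0362).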

How the data were processed

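Gene-level RNA sequencing was deposited for 36 libraries. The authors quantified BGISEQ-500 paired-end reads with Salmon 1.2.1 against GENCODE transcripts of GRCm38.p6 and deposited estimated counts per gene, which were rounded to whole numbers here. Every deposited column matched a sample. The 54347 genes were matched to the GENCODE M21 annotation, the release available here, and 54094 were found in it. Transcripts of several complex I genes have near-identical pseudogenes, such as Ndufb4c for Ndufb4, so their counts can be split.

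Genes above 1 CPM in at least 6 libraries were kept (15340), scaled by TMM and fitted with edgeR 4.0.16 (R 4.3.3, quasi-likelihood F-test) in a single model of 12 groups with all libraries. P-values were adjusted by Benjamini-Hochberg over all tested genes, and a call is an adjusted p below 0.05. Levels between genes were compared per kb of annotated transcript. Alternatives were RLE scaling, library totals, other filters (more than 20 counts, or filterByExpr), no filter, limma-voom (limma 3.58.1), DESeq2 1.42.0, fits of 9 libraries, a replicate block, a threshold of 0.001 on the unadjusted p and leaving out each library. Library totals for the other pathway lists were added after the values were seen. The test was also run on simulated counts with few and balanced changes, which cannot probe the choice of scaling, and no result here rests on it. Named genes are the core subunits, the tissue isoforms, the members called alike or oppositely across cell types, and the largest change of each complex. The members and all gene lists were chosen with earlier results of these data known. A result that needs a withheld item is not reported here.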

Additional observations from a re-analysis of the deposited data

Results flagged for a closer look

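The effect of butyrate differed between cell types by a test of the difference itself (edgeR, adjusted p below 0.05) for 25 members between adipocytes and macrophages, 24 between macrophages and myotubes, 21 between adipocytes and hepatocytes, 18 between macrophages and hepatocytes, 18 between myotubes and hepatocytes and 9 between adipocytes and myotubes. These numbers are below the share of all genes that differed in each contrast, as given with the comparison above.

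The effects had opposite directions, each past the threshold, for 9 members. Since these were picked by their opposite calls, the differences below give sizes and add no support. For Ndufaf3 the effect in myotubes minus that in hepatocytes was -0.92. For Atp5d the effect in macrophages minus that in hepatocytes was 0.56. For Ndufv2, Sdhd, Cyc1 and Uqcrfs1 the effect in adipocytes minus that in macrophages was -0.56, -0.48, -0.43 and -0.43. For Ndufa12, Ndufab1 and Sdhd the effect in macrophages minus that in myotubes was 0.50, 0.44 and 0.42. Ndufab1 also differed between macrophages and hepatocytes by 0.43, and Uqcrfs1 between adipocytes and hepatocytes by -0.41. Atp5c1 differed from hepatocytes by -0.32 in adipocytes and by -0.32 in myotubes. All differences are on the log2 scale, and under library totals alone Atp5d and Sdhd still passed in both directions.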

How the results depend on the processing

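With scaling by library totals alone, members lowered by butyrate became 9 in adipocytes, 9 in macrophages and 15 in myotubes, members raised became 45 in macrophages and 10 in myotubes, and 37 members differed between butyrate and bOHB in myotubes. Under it the log2 fold change with butyrate in macrophages turned positive for Cox8a (0.0784), Ndufs1 (0.0308), Sdhb (0.0383), Uqcrc2 (0.0324) and Uqcrq (0.0033), and the difference from bOHB for Atp5g3 in macrophages (0.0405) and Uqcrh in myotubes (0.0013). In a fit of the 9 myotube libraries by themselves, 31 members fell in myotubes (32.6%, against 29.7% of all genes). At an unadjusted p below 0.001, members lowered were 7 in adipocytes, 15 in macrophages, 22 in myotubes and 13 in hepatocytes (22.1%, 25.5%, 24.7% and 25.2% of all genes), and members raised 12 in macrophages and 8 in hepatocytes (24.2% and 24.1%). Butyrate then differed from bOHB for 7 members in adipocytes, 26 in macrophages and 19 in hepatocytes (44.5%, 49.4% and 49.2% of all genes), and the effects differed for 10 (adipocytes and macrophages), 2 (adipocytes and myotubes), 9 (adipocytes and hepatocytes), 11 (macrophages and myotubes), 5 (macrophages and hepatocytes) and 6 members (myotubes and hepatocytes), against 22.1%, 22.1%, 26.7%, 27.4%, 29.3% and 32.1% of all genes. Counts that moved less at this threshold, such as that of butyrate against bOHB in myotubes, are not listed.

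With 1 library left out at a time, members lowered ranged from 15 to 34 in adipocytes, 19 to 28 in macrophages and 26 to 60 in myotubes, and differing effects from 4 to 10 between adipocytes and myotubes and from 11 to 25 between myotubes and hepatocytes. Replicates sharing a number did not deviate together in every pair (correlations from -0.29 to 0.38, with those of adipocyte replicate 1 at 0.19 to 0.38), so they were not taken to pair the libraries. With the replicate block, 1 member passed with bOHB in myotubes (Ndufv3, edgeR adjusted p = 0.0303), and 61 fell with butyrate in myotubes. The cause of these shifts was not tested.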
